A study of Mus musculus with 2 samples.

Results

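The 41 genes described here encode adhesion molecules that join the pre- and postsynaptic membranes, and all 41 were found by gene symbol among the 47643 genes of the count tables. The list was taken by family, with earlier results of these data known. The families are neurexins, neuroligins, the leucine-rich repeat families LRRTM, SLITRK, FLRT, LRFN and LRRC4, LAR-type receptor phosphatases, latrophilins, teneurins, IL1RAP proteins and CADM proteins. A gene was kept when at least 1 library held 150 or more reads, which 39 of the 41 genes and 10130 of all genes met. Lrrtm3, with 95 reads in siCtl and 104 in siPhf6, and Lrrtm4, with 68 and 97, were below this minimum. Each of the 39 kept genes had at least 245 reads in each library, so none was kept through 1 library alone.

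The study asked how loss of PHF6, an X-linked PHD finger protein, alters transcription in the developing mouse cortex. Progenitors from the cortex of wild-type (WT) mice at embryonic day 14, labelled male, were electroporated with a pool of siRNAs against Phf6 (siPhf6) or with non-targeting control siRNA (siCtl) and were cultured for 5 days before mRNA-seq. The knockdown was transient, and both groups shared the genotype, electroporation and culture. The study lists several cultures per group, 1 count table per group was analysed here, and whether a table pools cultures is not stated. Every value below therefore compares 1 library with 1 library, without a replicate check and without a p-value.

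The siCtl library held 12155311 gene reads and the siPhf6 library 10561757. Phf6 itself had 1420 reads (117 RPM, reads scaled to 1000000 gene reads) in siCtl and 310 reads (29.4 RPM) in siPhf6, a log2 ratio of -1.99. Ratios are siPhf6 over siCtl on the log2 scale of reads plus 1 divided by the library's gene reads, with exact 95% intervals that cover counting error only. A gene is described as higher or lower in siPhf6 when its log2 ratio lay beyond 0.5 in either direction (1.41-fold) and its interval did not hold 0.

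The cultures were labelled as progenitors, yet neuronal markers were abundant. The summed level of 10 markers of postmitotic neurons, such as Dcx and Map2, was 3376 RPM in siCtl and 3387 RPM in siPhf6, and none of the 10 was past the limit. For 6 glutamatergic markers the sum was 1206 and 1106 RPM, with none past the limit. For 8 GABAergic markers it was 341 and 336 RPM, and 2 of the 6 kept, Lhx6 and Dlx1, were lower. Radial glia markers summed to 350 RPM in siCtl and 483 RPM in siPhf6, astrocyte markers to 311 and 440 RPM, and oligodendrocyte lineage markers to 75.4 and 96.3 RPM. In each of these 3 lists 2 genes were higher and none lower, of 5, 4 and 3 kept and 9, 6 and 7 listed. Of all kept genes, 5.55% were higher and 4.93% lower. The higher genes of the 3 lists were Nes and Slc1a3 among radial glia markers, Slc1a2 and Aqp4 among astrocyte markers, and Olig1 and Olig2 in the oligodendrocyte lineage. Slc1a2 alone stood at 242 and 364 RPM, most of the astrocyte sum. Within the limit and below 0 lay Sox2 (-0.22), the astrocyte marker Gfap (-0.14) and the myelin gene Mbp (-0.31). Markers of dividing cells stood at 27.2 and 58.1 RPM, and both kept of 5 listed, Mki67 and Top2a, were higher. Fibroblast markers stood at 16.9 and 37.3 RPM, and the only gene kept of 5, Col1a1, was higher. Mki67 (120 and 250 reads), Top2a (136 and 275), Col1a1 (52 and 154), Aqp4 (102 and 155) and Olig2 (79 and 153) reached the read minimum in siPhf6 only. Such genes could be kept only with more reads in siPhf6, so their calls as higher were partly set by the minimum. The summed levels cover all listed genes, kept or not. The 5 microglial markers stood at 3.95 and 4.83 RPM, with C1qa at 0 in both libraries and none kept, and the 4 endothelial markers at 2.71 and 2.65 RPM, with Cldn5 at 0 in both. The part of these marker differences in the values below was not tested. In such bulk libraries, fewer cells of a type and less RNA per cell cannot be told apart.

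Trans-synaptic adhesion molecules reach across the synaptic cleft from opposite membranes and help to start, shape and specify synapses. On the presynaptic side, neurexins bind neuroligins and LRRTM proteins, and LAR-type phosphatases bind SLITRK, LRFN, LRRC4B and IL1RAP-family partners. Latrophilins bind both FLRT proteins and teneurins, which also guide migrating cortical neurons and growing axons, while CADM proteins pair through immunoglobulin domains.

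Of the 39 kept adhesion genes, 5 were lower in the siPhf6 library (Flrt3, Adgrl2, Slitrk2, Tenm3 and Tenm2), 2 were higher (Slitrk5 and Il1rap) and 32 were within the limit. The 5 lower genes are 12.8% of the kept adhesion genes, beside 4.93% of all kept genes, and the 2 higher are 5.13%, beside 5.55%. In both directions together 17.9% of the adhesion genes were past the limit, beside 10.5% of all kept genes. The genes were listed with earlier results of these data known, so these shares are a description only. The median log2 ratio of the 39 genes was -0.04, with 18 ratios above 0 and 21 below (15 and 24 with DESeq2 size factors), and that of all kept genes was 0.01. The middle of the distribution was about as wide for the adhesion genes, with quartiles at -0.21 and 0.13, as for all kept genes, with quartiles at -0.16 and 0.16. Summed over the kept adhesion genes, the level was 7412 RPM in siCtl and 6916 RPM in siPhf6.

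**Figure D1:**
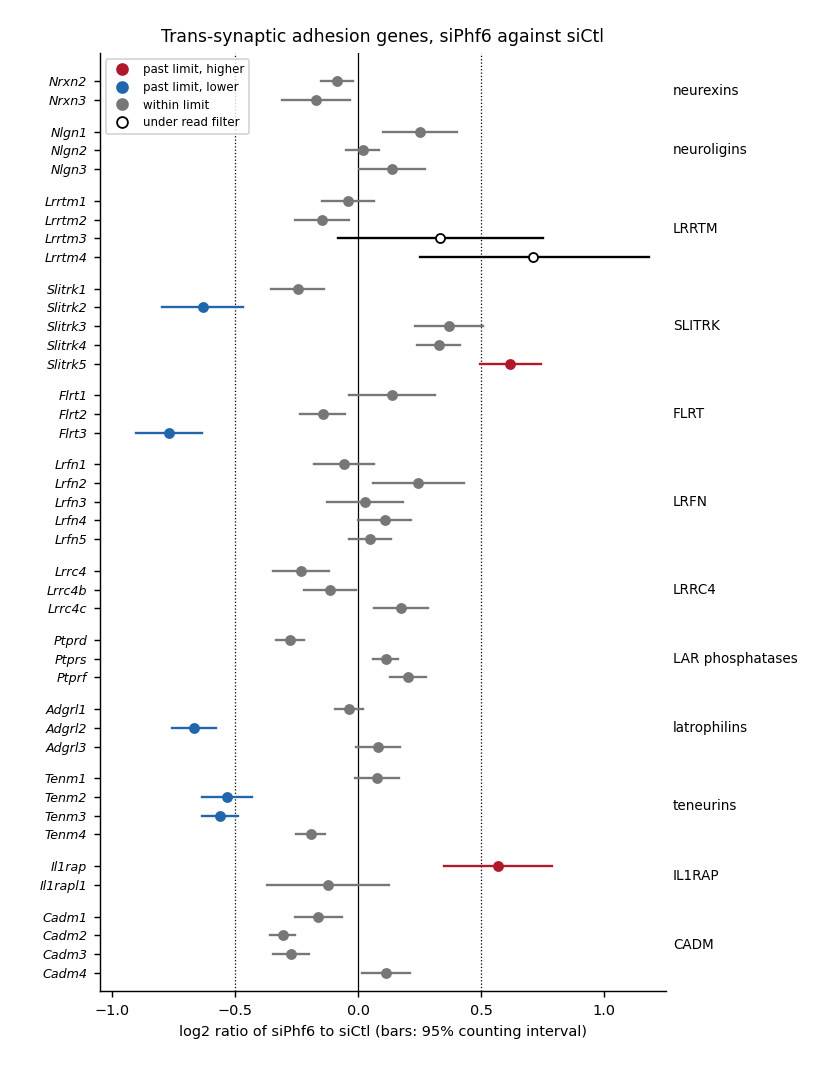
Log2 ratio of siPhf6 to siCtl (x axis) for each of the 41 adhesion genes (y axis, grouped by family). Points are single ratios of 1 library to 1 library, bars are exact 95% counting intervals, dotted lines mark the limit of 0.5, and the open points are the 2 genes with fewer than 150 reads in both libraries. Flrt3, Adgrl2, Slitrk2, Tenm3 and Tenm2 lie left of the limit, and Slitrk5 and Il1rap lie right of it.

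FLRT proteins and teneurins both bind latrophilins. These 3 families were set together after their values were seen, so their counts are a description only. Of these 10 genes 4 were lower and 0 higher, beside 4.93% lower and 5.55% higher of all kept genes. Their median log2 ratio was -0.17, and their summed level was 2364 RPM in siCtl and 1999 RPM in siPhf6. Each of the 3 families also held genes close to 0.

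The largest difference among the kept adhesion genes was in Flrt3 (ENSMUSG00000051379, chr2:140650914-140671469, minus strand, GRCm38). This gene encodes a leucine-rich repeat protein that binds latrophilins and UNC5 receptors and acts in cell adhesion and axon guidance. It had 1365 reads (112 RPM) in siCtl and 696 reads (65.9 RPM) in siPhf6, a log2 ratio of -0.77 (-0.90 to -0.64). Only 1.40% of all kept genes had a lower ratio. The other two FLRT genes stayed within the limit. Flrt2, which guides migrating neurons through UNC5 receptors, had 2249 and 1769 reads (185 and 167 RPM, log2 ratio -0.14), and Flrt1 had 556 and 532 reads (45.7 and 50.4 RPM, log2 ratio 0.14).

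Among the latrophilins, adhesion G protein-coupled receptors that carry FLRT and teneurin binding domains outside the cell, 1 of 3 was lower. Adgrl2 (latrophilin 2, ENSMUSG00000028184, chr3:148815583-148990555, minus strand) had 2984 reads (245 RPM) in siCtl and 1633 reads (155 RPM) in siPhf6, a log2 ratio of -0.67 (-0.75 to -0.58). Its paralogs were nearly level between the libraries. Adgrl1 had 5358 and 4541 reads (441 and 430 RPM, log2 ratio -0.04, -0.09 to 0.02), and Adgrl3 had 2122 and 1950 reads (175 and 185 RPM, log2 ratio 0.08, -0.01 to 0.17). The intervals of Adgrl1 and Adgrl3 both held 0 and did not overlap that of Adgrl2.

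Teneurins are large dimeric transmembrane proteins that bind latrophilins and one another and match pre- and postsynaptic cells in developing circuits. Tenm3 (ENSMUSG00000031561, chr8:48227682-48843951, minus strand) had 4219 reads (347 RPM) in siCtl and 2484 reads (235 RPM) in siPhf6, a log2 ratio of -0.56 (-0.63 to -0.49). Tenm2 (ENSMUSG00000049336, chr11:36006656-37235964, minus strand) had 2157 reads (177 RPM) and 1296 reads (123 RPM), a log2 ratio of -0.53 (-0.63 to -0.43). Both were lower by a like amount, and their intervals overlapped. Tenm4 lay on the same side within the limit, with 5549 and 4217 reads (457 and 399 RPM, log2 ratio -0.19, -0.25 to -0.14). Tenm1, on the X chromosome, had 2181 and 1999 reads (179 and 189 RPM, log2 ratio 0.08, -0.01 to 0.17), so the 4 teneurins did not all lie on one side. The family median was -0.36. Tenm2, the adhesion gene nearest the limit from outside, was the first to come back within it under other processing, at -0.50 once a trend with transcript length was subtracted.

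SLITRK proteins are postsynaptic partners of the LAR-type phosphatases PTPRD and PTPRS, with leucine-rich repeats outside the cell, and the 5 genes listed, Slitrk1 to Slitrk5, spanned a wider range of ratios than any other family here. Slitrk6, not among the 41 genes, had 6 reads in siCtl and 3 in siPhf6. Slitrk5 (ENSMUSG00000033214, chr14:111675097-111683141, plus strand) had 956 reads (78.6 RPM) in siCtl and 1276 reads (121 RPM) in siPhf6, a log2 ratio of 0.62 (0.50 to 0.74), and 96.2% of all kept genes had a lower ratio. Slitrk2 (ENSMUSG00000036790, chrX:66649318-66661393, plus strand) had 847 reads (69.7 RPM) and 475 reads (45.0 RPM), a log2 ratio of -0.63 (-0.80 to -0.47). The other three lay within the limit on either side of 0. Slitrk3 had 815 and 914 reads (67.0 and 86.5 RPM, log2 ratio 0.37), Slitrk4 had 2039 and 2223 reads (168 and 210 RPM, log2 ratio 0.33), and Slitrk1 had 1630 and 1194 reads (134 and 113 RPM, log2 ratio -0.25). The intervals of these 5 genes lay clear of 0, 3 above it and 2 below, a looser mark without a share of all kept genes beside it. Slitrk2 and Slitrk4 are both on the X chromosome, and Slitrk1 and Slitrk5 are both on chromosome 14, and within each of these pairs the ratios had opposite signs. Summed over these 5 genes, the level was 517 RPM in siCtl and 576 RPM in siPhf6.

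IL1RAP and IL1RAPL1 are immunoglobulin domain proteins that bind PTPRD across the synapse, and IL1RAP is also the shared accessory chain of the interleukin-1 receptor. Il1rap (ENSMUSG00000022514, chr16:26581704-26730117, plus strand) had 309 reads (25.4 RPM) in siCtl and 398 reads (37.7 RPM) in siPhf6, a log2 ratio of 0.57 (0.35 to 0.79). Il1rapl1, mutated in an X-linked form of intellectual disability, had 307 and 245 reads (25.3 and 23.2 RPM, log2 ratio -0.12, -0.37 to 0.12). These were the 2 kept adhesion genes with the fewest reads, and their intervals were the widest. Counts per gene do not separate the neuronal and the immune splice forms of Il1rap.

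Among the genes past the limit, 3 overlap annotated exons on the opposite strand, which these libraries cannot separate. The overlap is 1.42% of the exonic length of Adgrl2 (Gm43573, 6 and 7 reads), 1.11% of Tenm3 (Gm19744, 32 and 46 reads) and 4.86% of Il1rap (Gm20319, 0 and 1 reads).

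The 2 neurexins and 3 LAR-type phosphatases were within the limit. Nrxn2 had 4238 and 3469 reads (349 and 328 RPM, log2 ratio -0.09), and Nrxn3 had 968 and 747 reads (79.6 and 70.7 RPM, log2 ratio -0.17). Ptprd, which binds SLITRK and IL1RAP-family proteins, had 5709 and 4095 reads (470 and 388 RPM, log2 ratio -0.28, -0.33 to -0.22). Its paralogs lay on the other side of 0, Ptprs with 6086 and 5713 reads (501 and 541 RPM, log2 ratio 0.11) and Ptprf with 2969 and 2970 reads (244 and 281 RPM, log2 ratio 0.20). The intervals of Ptprd and of both paralogs excluded 0 on opposite sides, a looser mark than the limit. Summed over the 3 phosphatases the level was 1215 RPM in siCtl and 1210 RPM in siPhf6.

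Neuroligins, the postsynaptic receptors of neurexins, had ratios above 0 and within the limit, although that of Nlgn2 was below 0 with TMM, DESeq2 or GC-trend scaling (-0.0048, -0.0331 and -0.0341). Nlgn1, the form of excitatory synapses, had 708 and 732 reads (58.2 and 69.3 RPM, log2 ratio 0.25, 0.10 to 0.40). Nlgn2, the form of inhibitory synapses, had 3867 and 3403 reads (318 and 322 RPM, log2 ratio 0.02, -0.05 to 0.09), and Nlgn3 had 943 and 901 reads (77.6 and 85.3 RPM, log2 ratio 0.14). The annotation used here gives 41.2% of the exonic length of Nlgn3 also to Gm21986 on the same strand, which had 6 reads in siCtl and 10 in siPhf6, so reads of the shared part may have been left uncounted.

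Among the LRRTM genes, which bind neurexins at excitatory synapses, Lrrtm1 had 1561 and 1318 reads (128 and 125 RPM, log2 ratio -0.04) and Lrrtm2 had 1568 and 1230 reads (129 and 116 RPM, log2 ratio -0.15). The ratios of the rarely read members were 0.33 (-0.08 to 0.75) for Lrrtm3 and 0.71 (0.25 to 1.18) for Lrrtm4. Lrrtm4 was thus past the limit by ratio and interval, on 68 and 97 reads, but below the read minimum. The 5 LRFN genes, whose products include ligands of LAR-type phosphatases, ranged from -0.06 (Lrfn1, 1201 and 1003 reads) to 0.25 (Lrfn2, 466 and 480 reads). Their median was 0.05, and it turned to just below 0 (-0.0015) with DESeq2 size factors. In the LRRC4 family, which binds netrin-G proteins or, for LRRC4B, LAR-type phosphatases, Lrrc4 stood at 121 and 103 RPM (-0.23), Lrrc4b at 136 and 126 RPM (-0.11) and Lrrc4c at 110 and 124 RPM (0.17). Over all 18 kept genes of the postsynaptic leucine-rich repeat families, FLRT and SLITRK included, 1 was higher (5.56%) and 2 were lower (11.1%). Of all kept genes, 5.55% were higher and 4.93% lower. The median of the 18 genes was -0.01.

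The CADM genes encode immunoglobulin adhesion molecules of synapses and axons that bind one another. Cadm2 had 7703 and 5413 reads (634 and 513 RPM, log2 ratio -0.31, -0.36 to -0.26), the most reads of any adhesion gene in siCtl. Cadm3 had 3642 and 2619 reads (300 and 248 RPM, log2 ratio -0.27) and Cadm1 had 2049 and 1592 reads (169 and 151 RPM, log2 ratio -0.16). These 3 genes lay below 0 with intervals that did not hold it, a looser mark than the limit. Cadm4, a CADM of myelinating glia as well as neurons, lay above 0, with 1765 and 1659 reads (145 and 157 RPM, log2 ratio 0.11, 0.02 to 0.21). Cadm3 shares 4.98% of its exonic length with Ackr1 on the same strand, and Ackr1 had 444 and 312 reads.

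Of the genes near the limit, Tenm2 (-0.53) and Tenm3 (-0.56) were the nearest outside, and Slitrk3 (0.37), Slitrk4 (0.33) and Cadm2 (-0.31) the nearest inside. With a limit of 0.25 and an exact binomial test of the reads at a false discovery rate under 0.01, which compares these libraries and not the conditions, 8 adhesion genes were lower and 5 higher. The additions were Cadm2, Cadm3 and Ptprd among the lower genes and Slitrk3, Slitrk4 and Nlgn1 among the higher, while Il1rap and Slitrk5 remained. By that rule 12.4% of all kept genes were lower and 13.4% higher. With a limit of 1 no adhesion gene was past it, beside 1.53% of all kept genes.

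**Figure D2:**
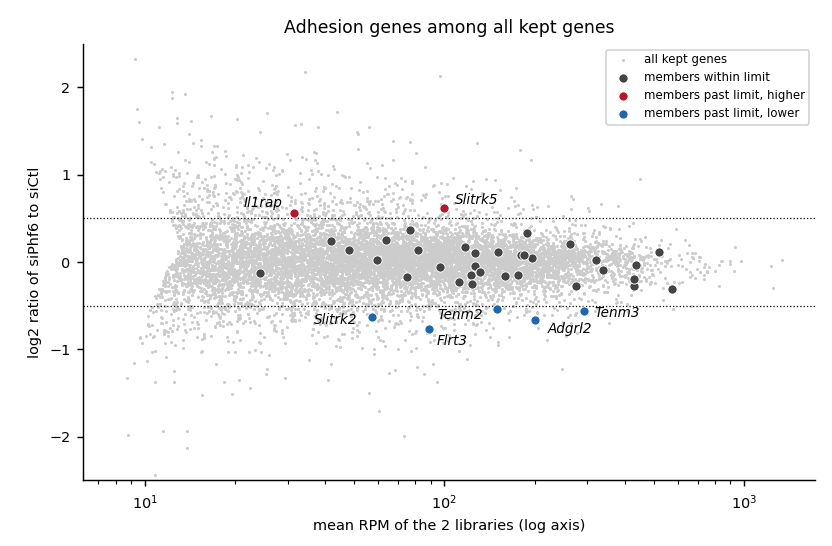
Log2 ratio of siPhf6 to siCtl (y axis) against mean RPM of the 2 libraries (x axis, log scale) for all kept genes in grey and the 39 kept adhesion genes in dark grey, red (higher) or blue (lower). Dotted lines mark the limit of 0.5, 3 of all kept genes lie beyond the plotted range, and ratios scatter most widely at low levels. The 5 blue points lie below the lower dotted line and the 2 red points above the upper one.

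Adhesion genes were read more deeply than most genes, with a median of 1658 reads in siCtl, beside 764 over all kept genes. Ratios of deeply read genes scatter less through counting. Among genes for which the libraries together gave more than 1000 reads, a limit set after the values were seen, 6 of 36 adhesion genes (16.7%) were past the limit, 5 lower and 1 higher, beside 6.59% of all such genes. The spread of the ratios, as a robust SD from the median absolute deviation, was 0.26 for these adhesion genes and 0.20 for all genes of that depth.

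Levels between genes were compared per kilobase of exon (RPKM). Cadm4 (67.2 in siCtl and 72.7 in siPhf6), Cadm2 (64.6 and 52.2), Nlgn2 (55.0 and 55.7), Adgrl1 (51.3 and 50.1) and Lrrc4b (46.6 and 43.1) were the highest. The lowest were Lrrtm4 (0.91 and 1.49), Lrrtm3 (1.84 and 2.32), Il1rap (2.24 and 3.32), Il1rapl1 (2.70 and 2.48) and Nlgn1 (4.34 and 5.16). With 1 library per group, no neighbours in the order can be said to differ beyond a spread between cultures. Flrt3 moved from rank 18 of 41 in siCtl to 28 in siPhf6 and Tenm3 from 9 to 16, while Slitrk5 moved from 28 to 17 and Slitrk4 from 24 to 14.

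**Figure D3:**
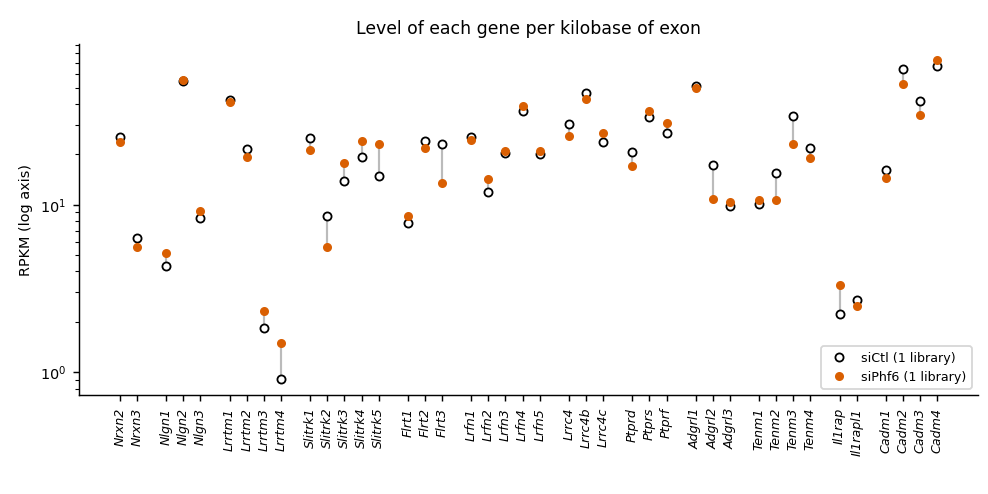
Level of each of the 41 adhesion genes in RPKM (y axis, log scale), with open points for the siCtl library and orange points for the siPhf6 library, joined by a line for each gene. Levels run from 0.91 for Lrrtm4 to 72.7 for Cadm4, and the wider gaps between the libraries are at Flrt3, Adgrl2, Slitrk2, Tenm2, Tenm3, Slitrk5, Il1rap and Lrrtm4.

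Other genes of the pathway, none of them among the 41, were listed by function. Of 27 extracellular partners, such as calsyntenins, neurexophilins, glypicans and UNC5 receptors, with Slitrk6 and Il1rapl2 placed here as well, 20 were kept. Of these, 1 (5%) was higher and 2 (10%) were lower, beside 5.55% and 4.93% of all kept genes. The median log2 ratio of the 20 was -0.02. Nxph1, a secreted neurexophilin that binds alpha-neurexins, had 560 reads in siCtl and 285 reads in siPhf6, a log2 ratio of -0.77 (-0.98 to -0.56). Clstn2, a calsyntenin of the postsynaptic membrane, had 2814 and 1707 reads (232 and 162 RPM, log2 ratio -0.52, -0.61 to -0.43). Both were lower, whereas Igsf21, an immunoglobulin protein that binds NRXN2 at inhibitory synapses, was higher with 456 and 580 reads (37.5 and 54.9 RPM, log2 ratio 0.55). Unc5b, a netrin receptor that FLRT proteins bind, was within the limit with 322 and 394 reads (26.5 and 37.3 RPM, log2 ratio 0.49).

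Of 28 cytoplasmic partners, such as scaffolds of the CASK, DLG and MAGI families and liprins, 27 were kept. Of these, 2 (7.41%) were higher and 0 lower, beside 5.55% and 4.93% of all kept genes. The median of the 27 was -0.01. Mpp2, a membrane-associated guanylate kinase scaffold, had 269 reads (22.1 RPM) in siCtl and 555 reads (52.5 RPM) in siPhf6, a log2 ratio of 1.24 (1.03 to 1.46). Tanc1, a postsynaptic density scaffold, had 237 and 352 reads (19.5 and 33.3 RPM, log2 ratio 0.77, 0.53 to 1.02). Both exceeded the ratio of every kept adhesion gene. Mpp3 (581 and 709 reads, log2 ratio 0.49) and Dlg1, which encodes SAP97 (791 and 932 reads, log2 ratio 0.44), were within the limit.

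The sequences around the RefSeq starts of the genes past the limit, some of them internal starts, differed in CpG content. The choice of genes did not use this feature, and it was looked at after the ratios were known. The stretches printed show it for a higher gene, Il1rap, and for the lower genes Flrt3 and Slitrk2. They are the 200 bases from 250 to 51 bases before the RefSeq start, written 5' to 3' on the strand of the gene (GRCm38.p6), with each CpG in capitals. Their positions are chr16:26581455-26581654 (plus strand) for Il1rap, chr2:140671527-140671726 (minus strand) for Flrt3 and chrX:66649068-66649267 (plus strand) for Slitrk2.
Il1rap: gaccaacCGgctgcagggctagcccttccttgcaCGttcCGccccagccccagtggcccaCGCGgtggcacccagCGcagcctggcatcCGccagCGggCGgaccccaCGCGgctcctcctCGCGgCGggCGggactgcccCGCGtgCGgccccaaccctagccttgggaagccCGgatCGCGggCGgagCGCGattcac
Flrt3: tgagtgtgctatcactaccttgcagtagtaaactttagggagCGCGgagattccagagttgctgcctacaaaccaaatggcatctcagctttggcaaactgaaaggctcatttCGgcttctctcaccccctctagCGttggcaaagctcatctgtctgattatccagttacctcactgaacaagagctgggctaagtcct
Slitrk2: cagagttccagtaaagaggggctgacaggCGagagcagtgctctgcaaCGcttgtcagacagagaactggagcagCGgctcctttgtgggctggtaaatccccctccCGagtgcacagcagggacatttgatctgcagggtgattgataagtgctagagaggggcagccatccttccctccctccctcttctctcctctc

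The Il1rap stretch held 24 CpG and 75.5% G and C, the Flrt3 stretch 4 CpG and 48.5%, and the Slitrk2 stretch 4 CpG and 57.0%. Over the whole window of 300 bases, from 250 before to 50 after the start, Slitrk5 held 35 CpG and Il1rap 33. The lower genes held 10 (Tenm3), 8 (Flrt3), 8 (Slitrk2), 4 (Adgrl2) and 2 (Tenm2). The 30 kept adhesion genes with a window had a median of 12, beside 22 over all kept genes. Across these 30 genes, CpG count and log2 ratio had a Pearson r of 0.56 and a Spearman rho of 0.52, and across 7924 kept genes r was -0.02 and rho -0.01. Without Il1rap and Slitrk5, r over the other 28 genes was 0.45. These are descriptions across genes that share both libraries, and genes are not independent replicates.

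The window is not the start of the annotated gene for each of them. The RefSeq start of Tenm2 lies 291723 bases inside the annotated gene, that of Tenm3 169261 and that of Adgrl2 35920. The windows of these 3 lower genes are thus at internal starts. Of the higher genes, Slitrk5 has its RefSeq start 930 bases inside the annotated gene, and Il1rap has its start 1 base inside. The stretch before the start overlaps an annotated exon for Slitrk5 and for Adgrl2, but not for Il1rap. Over the 24 adhesion genes whose start lies within 1000 bases of the annotated 5' end, r was 0.54. Over the 6 with a start further off, r was -0.36. Median CpG counts in these groups were 16 and 3, beside 23 and 18 over all kept genes split the same way. Which starts the cultures used was not measured. The ratios had a weaker relation to other features over the 39 genes, with r of -0.19 for the log10 length of the locus, -0.16 for log10 exonic length, 0.12 for G and C content of the transcript and -0.25 for log10 mean RPM. A CA repeat of 5 units (CACACACACA on either strand) was in the window of 1 of 32 adhesion genes, Lrrtm4, and of 1.86% of all 27025 genes with a window.

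**Figure D4:**
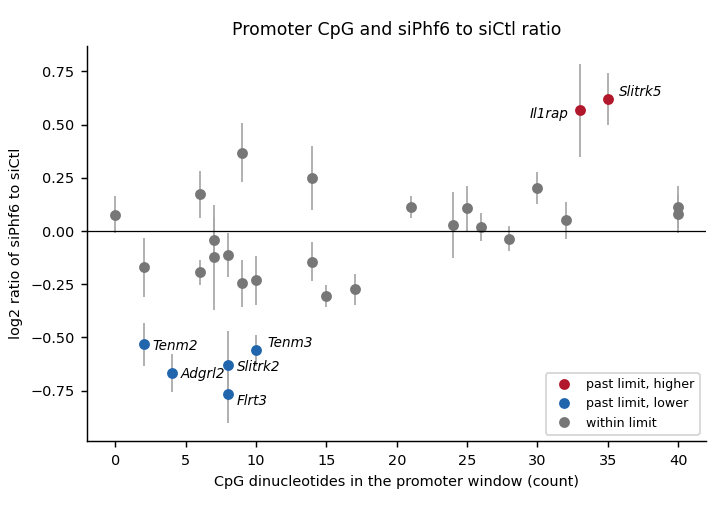
Log2 ratio of siPhf6 to siCtl (y axis, bars are exact 95% counting intervals) against the number of CpG in the promoter window of 300 bases (x axis) for the 30 kept adhesion genes with a window. Il1rap (33) and Slitrk5 (35) lie at the upper right, the 5 lower genes have 2 to 10 CpG, and genes with ratios near 0 span the whole axis.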

How the data were processed

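The members and the partner and marker lists were chosen with earlier results of these data known. Per the study's methods, the authors mapped mRNA-seq reads to mm10 with HISAT2, removed duplicates (samtools) and used HTSeq to count reads over GENCODE M9 genes. The library kit, TruSeq RNA v2, which does not mark strand, is not named in the methods of the paper. The submitters' processing notes also name deepTools 3.5.1. The deposited values are raw counts, 1 table per group. Of all counted reads, 25.3% in siCtl and 24.1% in siPhf6 were in no feature and 1.99% and 2.04% were ambiguous. These rows were left out.

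Here, a minimum of 150 reads in either library was required, as in the study. Ratios used reads plus 1 over total gene reads, with exact (Clopper-Pearson) 95% intervals, which cover counting error only, and calls needed a log2 ratio beyond 0.5 and an interval without 0. No test between conditions was possible with 1 library per group. Names, exonic lengths and positions came from GENCODE M21 (GRCm38), promoter windows from RefSeq. Alternatives used edgeR 4.0.16 (TMM) and DESeq2 1.42.0 (size factors), other read minimums, limits and added reads, and length or GC trends. All listed genes are named by family, with Phf6 and up to 4 kept genes of the largest absolute ratio per partner list. The steps ran in Python 3.11.15 and R 4.3.3 and were tested on simulated counts.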

Additional observations from a re-analysis of the deposited data

How the results depend on the processing

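With TMM scaling, DESeq2 size factors, 0.5 instead of 1 added read, or a GC trend subtracted, the same 5 adhesion genes were lower and the same 2 higher. The shares of all kept genes in these settings ran from 4.97% to 6.25% lower and from 4.63% to 5.55% higher. With DESeq2 size factors they were 6.25% lower and 4.63% higher. With at least 10 reads, 5 were lower and 3 higher, since Lrrtm4 joined them, beside 5.71% lower and 8.30% higher of all such genes. With a length trend subtracted 4 were lower, since Tenm2 stood at -0.50, beside 4.97% of all genes. A log2 limit of 1 left 0 lower and 0 higher, beside 0.474% and 1.06% of all kept genes. A limit of 0.25 with a binomial false discovery rate under 0.01 gave 8 lower and 5 higher, beside 12.4% and 13.4%. Where the libraries together gave more than 1000 reads, an alternative chosen after seeing the data, 5 were lower and 1 higher, since Il1rap had fewer reads. Of all genes of that depth, 3.46% were lower and 3.13% higher. The median log2 ratio ranged from -0.09 to -0.04 over the scalings, trends and read settings. Of 234 values of single genes under the 6 alternatives that change them, 232 kept their side of the limit and lay within the counting interval or past the same limit, and none of the genes past the limit changed sign. The exceptions were Tenm2 and Cadm2, which came to -0.36 with DESeq2 size factors. No library could be left out, and the spread between cultures is unknown. No paired analysis was possible because each group had 1 library and the result comes from no test.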

Other observations

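2 partner genes below the read minimum had ratios of some size on few reads. Nxph2, the paralog of Nxph1, had 125 reads in siCtl and 52 in siPhf6, and Lin7b, a scaffold that binds CASK, had 73 and 125 reads. Both were singled out after their values were seen.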
